A study of Lactuca sativa with 9 samples.

Results

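The Rubisco rows of a lettuce leaf gene table were examined across 3 light intensities. A row was taken as a member where its description names ribulose bisphosphate carboxylase, ribulose-1,5-bisphosphate carboxylase or Rubisco and does not name a methyltransferase or LSMT, which gave 14 of 35342 rows. Of these, 7 are annotated as small subunits of Rubisco, 5 as Rubisco large subunit-binding proteins, 1 as Rubisco activase and 1 as a RuBisCO-cytochrome methylase, RMS1. One small subunit row merges a pair of genes, LOC111908250 and LOC111908249, so that the 14 rows carry 15 gene names. The 5 rows whose descriptions mention the large subunit are chaperonins that bind it, and no row under this rule is the catalytic large subunit. A filter on low values (mean FPKM of at least 0.5) kept 12 members for testing. The small subunit rows LOC111900246 and LOC111913872 did not pass it, with at most 0.866 and 0.284 FPKM in any library.

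Rubisco fixes carbon dioxide onto ribulose bisphosphate at the first step of the Calvin cycle and is the most abundant protein of green leaves. In land plants the catalytic large subunit is encoded by the chloroplast genome, and the small subunit by a family of nuclear genes whose products are imported into the chloroplast. Chaperonins fold the large subunit before assembly, and Rubisco activase removes inhibitory sugar phosphates from the active site.

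Leaves of Lactuca sativa, sold as Hong Kong Glass, were collected from 24-d-old plants grown at 60 ± 2 µmol per square metre per second (Las_WL, low light), 175 ± 2 (Las_ML, medium light) or 340 ± 2 (Las_SL, high light), with 3 libraries per group. All groups shared the cultivar, chamber type, temperature and photoperiod, and leaves were cut and mixed into samples before freezing. The labels and the methods give the intensities in this way, while a passage in the results text of the study exchanges the outer groups, and the labels were followed here. The study sought RNAs that respond to light, and the groups were compared in pairs.

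Gene levels were given by the authors as FPKM, that is, fragments scaled by transcript length and by the mapped fragments of the library. The paper gives the reads of each library, but the reads behind each single FPKM value are unknown. The summed FPKM of 44 rows for chlorophyll-binding proteins and photosystem subunits, which mark green leaf tissue, was 15404 to 38707 in Las_WL, 19848 to 34326 in Las_ML and 18397 to 23634 in Las_SL. Library Las_WL 1 stood apart. Its 39 histone rows summed to 7660 FPKM, against 509 and 582 in the other Las_WL libraries, 622 to 1729 in Las_ML and 596 to 2206 in Las_SL, and its 12 rows of the replicative helicase MCM summed to 386 FPKM, against at most 91.7 in any other library. Histones and MCM mark dividing cells. Its 61 rows for lipid transfer proteins and 3-ketoacyl-CoA synthases, of epidermis and cuticle, summed to 6837 FPKM, against 2624 to 4587 in the other libraries. In bulk tissue, fewer cells of a type and less RNA per cell cannot be told apart. The log2 fold changes of the members in Las_SL against Las_WL are therefore also given without this library.

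Small subunit rows carried nearly all of the FPKM of the member rows, among which the catalytic large subunit and the abundant annotated activases are missing. The most abundant row, LOC111917913, ranked 5 of all rows by its mean over the 9 libraries. Its FPKM was 4901, 17316 and 14648 in Las_WL, 10224, 14811 and 10711 in Las_ML, and 11389, 7685 and 8959 in Las_SL. The groups overlapped, and the lowest of the 9 values was that of Las_WL 1. The merged row of LOC111908250 and LOC111908249 ranked 11, with 2563, 7158 and 5640 FPKM in Las_WL, 2923, 5623 and 3927 in Las_ML, and 1753 to 3440 in Las_SL. Here too the groups overlapped.

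The remaining small subunit genes were less abundant and differed more between libraries. LOC111908248 had 857, 3016 and 2368 FPKM in Las_WL, 776, 2235 and 1376 in Las_ML, and 868, 133 and 272 in Las_SL. Its Las_SL 2 and Las_SL 3 values lay below every other library, whereas Las_SL 1 lay within the range of the other groups. LOC111908252 had 310, 723 and 1310 FPKM in Las_WL, 325, 668 and 417 in Las_ML, and 201, 43.3 and 37.3 in Las_SL. LOC111908253 had 192, 384 and 821 FPKM in Las_WL, 239, 502 and 257 in Las_ML, and 99.8, 23.7 and 17.2 in Las_SL. For both genes every Las_SL library lay below all 6 others, and Las_WL and Las_ML overlapped. Among all tested genes, 2.89% had every Las_SL library below every Las_WL library and 4.2% had every Las_SL library below every Las_ML library. The share with every Las_SL library below all 6 others was not counted.

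**Figure D1:**
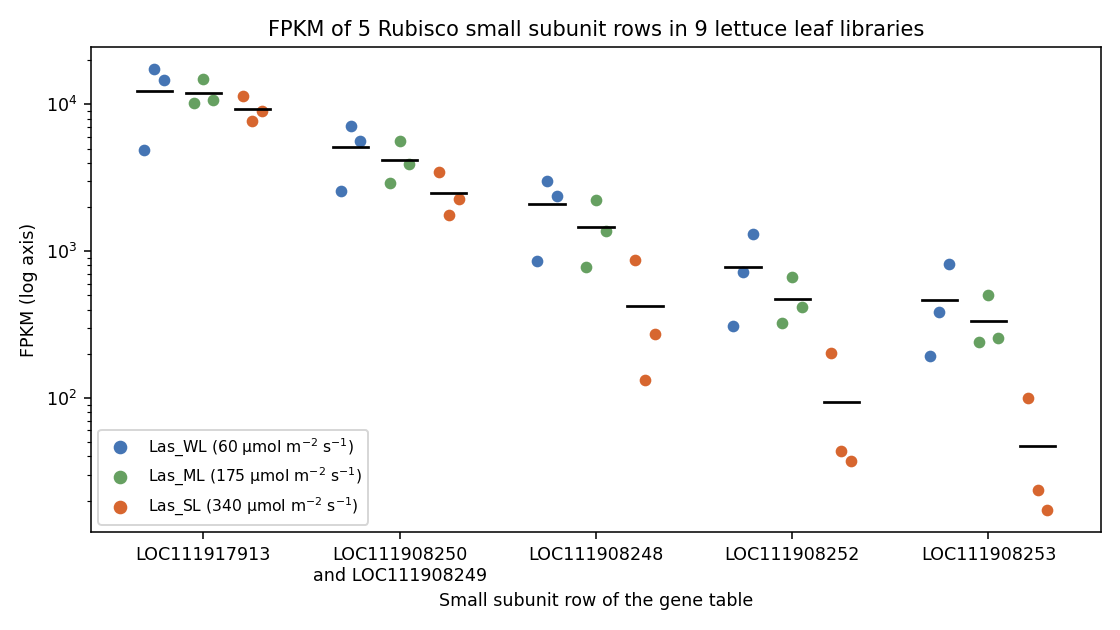
FPKM (log axis) of the 5 tested small subunit rows in each of the 9 libraries, with points for libraries, short lines for group means and groups from low to high light. The Las_SL points of LOC111908252 and LOC111908253 lie between 17.2 and 201 FPKM, below all Las_WL and Las_ML points of the same gene.

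Each gene was then tested with limma on log2(FPKM + 1) of 26145 genes over all 9 libraries, with Benjamini-Hochberg adjustment. On this scale a fold change understates the change of low genes. In Las_SL against Las_WL, LOC111908253 fell with a log2 fold change of -3.47 ± 0.73 (SE, limma adjusted p = 0.0393), as its mean was 46.9 ± 45.9 FPKM in Las_SL and 466 ± 322 FPKM in Las_WL (SD, n = 3 each). LOC111908252 fell with a log2 fold change of -3.25 ± 0.73 (limma adjusted p = 0.0436), at 93.9 ± 92.9 FPKM in Las_SL and 781 ± 503 FPKM in Las_WL. These 2 of 12 tested members were called lower, where 0.264% of all tested genes were called lower and 5.67% were called higher. The levels of the 2 genes were correlated over the 9 libraries (Pearson r = 0.99), and reads may be shared between them. They cannot be counted as 2 independent calls. LOC111908248 did not pass, with a log2 fold change of -2.53 ± 0.77 (limma adjusted p = 0.0839). The merged row had -0.98 ± 0.52 (limma adjusted p = 0.282) and LOC111917913 had -0.22 ± 0.63 (limma adjusted p = 0.885). All 5 tested small subunit rows had negative values, with a median of -2.53 beside a median of 0.18 over all genes tested, although LOC111917913 turned to 0.57 after quantile normalization.

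Both calls lay close to the threshold. They were lost in a fit of only the 6 libraries compared (limma adjusted p = 0.131 for LOC111908253 and 0.140 for LOC111908252), where 1 gene of all 26121 tested was called in place of 1552, and when any of Las_WL 2, Las_WL 3, Las_ML 1, Las_ML 2, Las_ML 3, Las_SL 2 or Las_SL 3 was left out, with log2 fold changes from -4.22 to -2.94 and from -4.02 to -2.76 over all 9 omissions. In these 7 omissions 0 to 1314 genes of all those tested were called. Without Las_WL 1 they stood at -3.98 and -3.80 (limma adjusted p = 0.0200 and 0.0203), and LOC111908248 at -3.08 and the merged row at -1.41 were called as well (limma adjusted p = 0.0340 and 0.0469), when 5698 of 25842 tested genes were called and 2.01% of the tested genes were called lower. LOC111917913 was not called without this library either, at -0.79 (limma adjusted p = 0.175).

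Against medium light, no member was called. In Las_SL against Las_ML, log2 fold changes were -3.14 ± 0.73 for LOC111908253 (limma adjusted p = 0.610), -2.69 ± 0.73 for LOC111908252 (limma adjusted p = 0.709) and -2.08 ± 0.77 for LOC111908248 (limma adjusted p = 0.873). A single gene of all those tested passed in this comparison, 0.00382%. Before adjustment, these 3 members and 5.52% of all genes had a p under 0.05, and with a log2 fold change of at least 1 in size as well, the same 3 members and 1.43% of all genes. In Las_WL against Las_ML, 0 of 12 members and 0.0% of all genes were called by limma. No member and 13.8% of all genes had an unadjusted p under 0.05. The 5 small subunit rows ranged there from -0.13 ± 0.63 for LOC111917913 to 0.56 ± 0.73 for LOC111908252. The comparisons with Las_WL and with Las_ML share the Las_SL libraries and are not independent of each other.

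**Figure D2:**
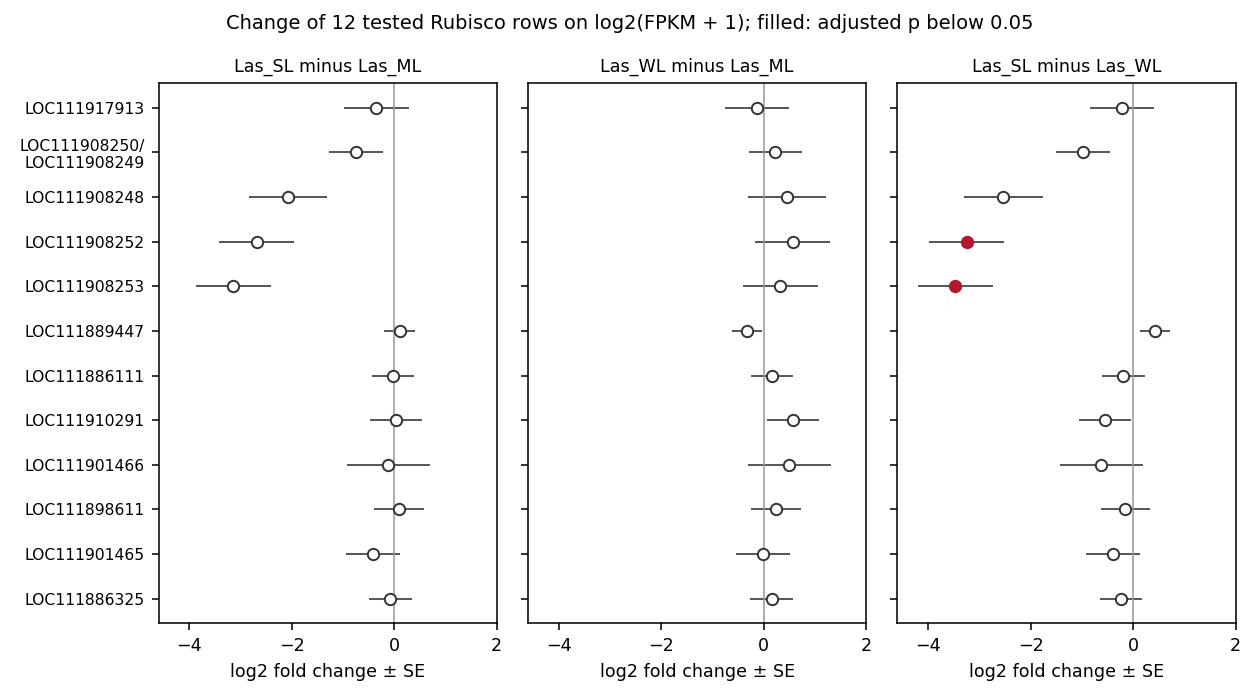
Log2 fold change on the log2(FPKM + 1) scale, with its SE as bars, for the 12 tested rows in the 3 comparisons, and filled points for limma adjusted p below 0.05. Only LOC111908252 and LOC111908253 in Las_SL minus Las_WL are filled, at -3.25 and -3.47, and the activase, binding protein and methylase rows lie between -0.62 and 0.58 in all panels.

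The make-up of the small subunit FPKM also differed between the groups. This measure, the percent of the summed small subunit FPKM that each row takes within a library, does not depend on how that library was scaled, was chosen after the values were seen and carries no test. LOC111917913 took 55.5%, 60.6% and 59.1% in Las_WL, 70.6%, 62.1% and 64.2% in Las_ML, and 71.2%, 79.7% and 77.6% in Las_SL. Its means were 58.4 ± 2.57% in Las_WL, 65.6 ± 4.40% in Las_ML and 76.2 ± 4.45% in Las_SL (SD, n = 3 each). No group overlapped with another, but the highest Las_ML value and the lowest Las_SL value were close. It was not counted how often such percents separate the groups in other gene families.

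The other 4 tested rows made up the remainder, at 41.6 ± 2.57% in Las_WL, 34.4 ± 4.41% in Las_ML and 23.8 ± 4.45% in Las_SL. Their percents add up to a fixed total with that of LOC111917913, so the rows do not vary independently. LOC111908248 took 9.55% to 10.5% in Las_WL, 5.36% to 9.38% in Las_ML and 1.38% to 5.43% in Las_SL, where only Las_SL 1 exceeded the lowest Las_ML library. LOC111908252 took 2.53% to 5.29% in Las_WL, 2.24% to 2.80% in Las_ML and 0.323% to 1.26% in Las_SL. LOC111908253 took 1.34% to 3.31% in Las_WL, 1.54% to 2.11% in Las_ML and 0.149% to 0.624% in Las_SL. Of these 4 rows the merged row changed least relative to its own level, with 22.8% to 29.1% in Las_WL, 20.2% to 23.6% in Las_ML and 18.2% to 21.5% in Las_SL.

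**Figure D3:**
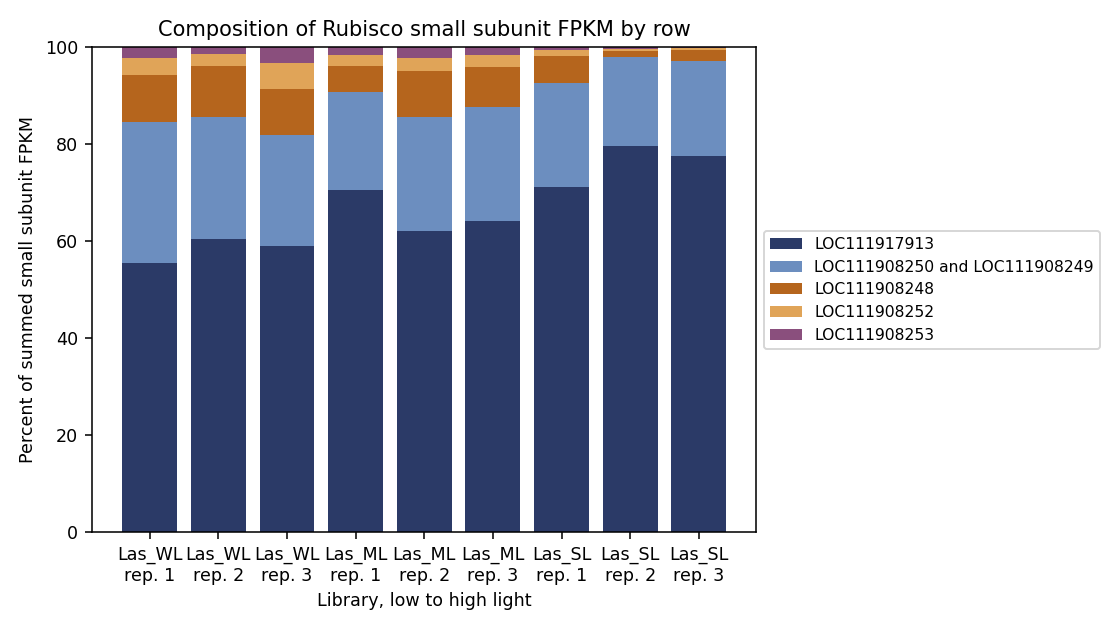
Stacked bars of the percent of summed small subunit FPKM taken by each of the 5 tested rows, for the 9 libraries from low to high light. The lowest segment, LOC111917913, reaches 55.5% to 60.6% in Las_WL and 71.2% to 79.7% in Las_SL.

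The genes of these 4 rows lie together in the genome. In the RefSeq annotation of lettuce assembly Lsat_Salinas_v11, which is not the build of the files and was used for names and order only, LOC111908248, LOC111908250, LOC111908253, LOC111908252 and LOC111908249 are 5 consecutive protein-coding genes on chromosome 2, and LOC111917913 is on chromosome 4. All 13 subunit and binding protein names looked up were found there. Small subunit genes of a plant are often near-identical in sequence, and how the counting divided shared reads among them is not given in the sources used here, so the division between these rows is uncertain. Across the 9 libraries, Pearson correlations of log2(FPKM + 1) ran from 0.53 to 0.99 between pairs of the 5 rows. The lowest was between LOC111917913 and LOC111908253, and the highest between LOC111908252 and LOC111908253. The ratio of LOC111908252 to LOC111908253 was 1.60 to 1.88 in Las_WL, 1.33 to 1.62 in Las_ML and 1.82 to 2.17 in Las_SL.

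As a class, small subunit rows made up 1.13%, 3.54% and 3.05% of total FPKM in Las_WL, 1.92%, 3.12% and 2.27% in Las_ML, and 2.22%, 1.34% and 1.61% in Las_SL. The groups overlapped, with means of 2.57 ± 1.27% in Las_WL, 2.44 ± 0.619% in Las_ML and 1.72 ± 0.454% in Las_SL. The log2 ratio of Las_SL to Las_WL was -0.58, and -0.94 without Las_WL 1. The lowest share was that of Las_WL 1, the library with the highest histone and MCM FPKM, and the part of dividing tissue in that value was not tested. Total FPKM over all rows was 781623 to 813150 in Las_WL, 736187 to 763138 in Las_ML and 718394 to 721348 in Las_SL, so that shares and FPKM do not scale alike. All 14 members together took 2.60% of total FPKM in Las_WL (3.31% without Las_WL 1), 2.46% in Las_ML and 1.75% in Las_SL.

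The row described as an activase under this rule, LOC111889447, was at low levels, and its identity is uncertain. Its description names Rubisco activase by similarity to a grape protein, whereas the orthology and enzyme numbers of the same row are those of cinnamoyl-CoA reductase, an enzyme of lignin synthesis. Its FPKM was 0.496, 0.754 and 1.41 in Las_WL, 2.08, 0.599 and 1.56 in Las_ML, and 1.31, 2.18 and 1.12 in Las_SL. The groups overlapped and no comparison passed, the widest being Las_SL against Las_WL with a log2 fold change of 0.43 ± 0.29 (limma adjusted p = 0.408). Without Las_WL 1 this value was 0.28. The row ranked 20999 by mean FPKM. A pair of abundant genes carry activase annotation outside the rule. LOC111910617, whose description spells the enzyme ribulose 1,5-bisphosphate carboxylase without a hyphen, ranked 10, and LOC111885179, described as a hypothetical protein but assigned the activase term of the Gene Ontology, ranked 31. Both were added after the data had been seen.

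LOC111910617 had 1380, 6026 and 6306 FPKM in Las_WL, 4178, 5585 and 3726 in Las_ML, and 3985, 4250 and 3480 in Las_SL. LOC111885179 had 613, 1881 and 1855 FPKM in Las_WL, 1390, 1850 and 1344 in Las_ML, and 1608, 1641 and 1477 in Las_SL. Las_WL 1 was the lowest library for both genes, and the other 8 libraries spanned 3480 to 6306 and 1344 to 1881 FPKM. Neither gene was called, with log2 fold changes in Las_SL against Las_WL of 0.06 ± 0.61 and 0.29 ± 0.45 (limma adjusted p = 0.975 and 0.769), which became -0.66 and -0.25 without Las_WL 1. The summed FPKM of the pair divided by that of the small subunits was 0.226, 0.277 and 0.329 in Las_WL, 0.384, 0.312 and 0.304 in Las_ML, and 0.350, 0.611 and 0.430 in Las_SL. Every Las_SL library lay above all Las_WL libraries in this ratio, while Las_ML overlapped with both. The small subunit sum in the denominator averaged 12392 FPKM in Las_SL and 20736 FPKM in Las_WL. How many of all genes separate in such a ratio was not counted. For LOC111889447 the same ratio, multiplied by 1000, was 0.0464 ± 0.0174 in Las_WL, 0.0873 ± 0.0594 in Las_ML and 0.135 ± 0.0790 in Las_SL (SD, n = 3 each), and Las_ML overlapped with both other groups. The log2 ratio of Las_SL to Las_WL was 1.54, and 0.95 without Las_SL 2.

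The large subunit-binding proteins form the chloroplast chaperonin, which encloses newly made large subunits while they fold. The alpha subunit gene LOC111886111 was the most abundant, with 203, 101 and 83.8 FPKM in Las_WL, 67.9, 119 and 152 in Las_ML, and 130, 77.1 and 115 in Las_SL. The beta subunit gene LOC111910291 had 121, 35.9 and 58.6 FPKM in Las_WL, 25.4, 46.4 and 63.5 in Las_ML, and 57.5, 27.4 and 50.4 in Las_SL. Both overlapped in all groups, and both were highest in Las_WL 1. The beta gene LOC111898611 had 3.34 to 15.8 FPKM and the alpha genes LOC111901466 and LOC111901465, neighbours on chromosome 2 of the same RefSeq assembly, had 1.98 to 34.5 and 0.232 to 4.26 FPKM over the 9 libraries. In each of these 3 genes the highest library was again Las_WL 1.

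None of the 5 binding protein rows was called by limma in any comparison, where 0.00382% of all genes were called in Las_SL against Las_ML, 0.0% in Las_WL against Las_ML and 5.94% in Las_SL against Las_WL. Before adjustment 0 of the 5 had a p under 0.05, beside 5.52%, 13.8% and 26.3% of all genes in the same comparisons. In Las_SL against Las_WL their log2 fold changes ran from -0.62 ± 0.81 for LOC111901466 to -0.15 ± 0.49 for LOC111898611, with limma adjusted p of at least 0.566. Without Las_WL 1, 4 of the 5 turned positive, between 0.18 and 0.39, and LOC111910291 stood at -0.09. Their summed FPKM was 378, 146 and 153 in Las_WL, 103, 180 and 235 in Las_ML, and 206, 111 and 183 in Las_SL, against summed MCM FPKM of 386, 7.46 and 3.97 in Las_WL, 4.19, 61.1 and 72.1 in Las_ML, and 91.7, 1.76 and 40.6 in Las_SL. As a description across the 9 libraries, which share preparation and scaling, the Pearson correlation of both sums on the log2 scale was 0.93 with MCM and 0.92 with histones. The small subunit sum gave -0.26 and -0.47, and the sum of the added activases LOC111910617 and LOC111885179 gave -0.67 and -0.84. The part of dividing cells in these levels was not tested.

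**Figure D4:**
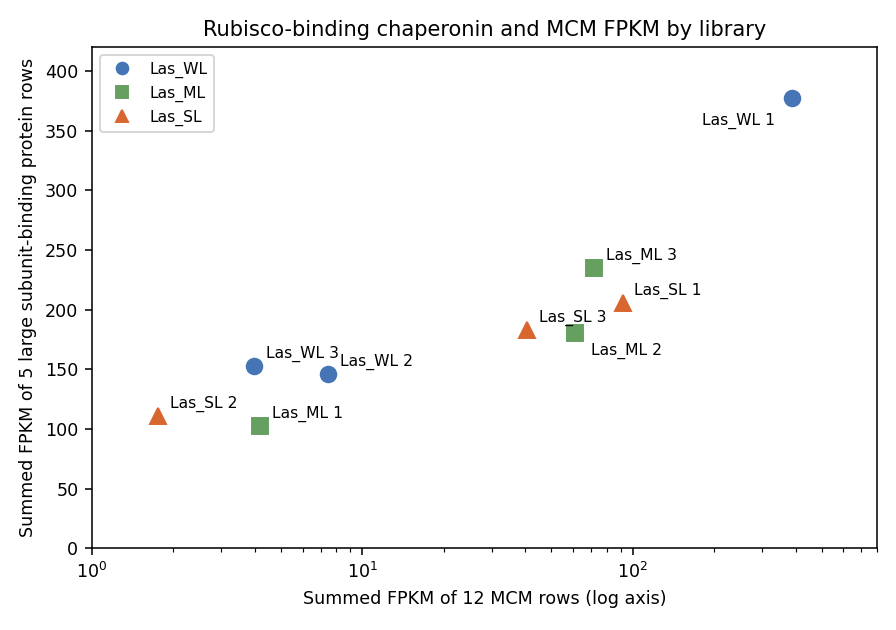
Summed FPKM of the 5 large subunit-binding protein rows against the summed FPKM of 12 MCM rows (log axis), 1 point per library, with marker shapes for the groups. Las_WL 1 lies apart at 378 and 386 FPKM, and the other 8 libraries lie between 103 and 235 FPKM of binding proteins with no separation by light.

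The RMS1 row, LOC111886325, had 1.26 to 6.26 FPKM in Las_WL, 1.44 to 2.59 in Las_ML and 1.61 to 2.17 in Las_SL. It overlapped in all groups, was highest in Las_WL 1 and was not called. In Las_SL against Las_WL its log2 fold change was 0.30 without this library.

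A single member was listed as the parental gene of circular RNAs, which are closed RNA loops detected by reads across a back-splice. LOC111886111 gave circRNA76, at NW_019680648.1 from 807885 to 808419 (Lsat_Salinas_v7) and spanning 2 exons, with 0, 5 and 0 reads in Las_WL, 3, 3 and 3 in Las_ML, and 1, 4 and 2 in Las_SL. It also gave circRNA77, from 808113 to 808419 on the same scaffold and holding 1 exon, with 3 reads in all. A count of 0 allows up to 3 reads, from counting error only, and libraries held 398 to 1036 back-spliced reads in total. With so few reads, differences between groups were not tested. Among the added activases, LOC111910617 had 4 circular RNAs with 18 reads in total. None was listed for a small subunit gene, and the 5 tested small subunit rows ranked between 5 and 242 by mean FPKM. The share of all gene rows listed as parental genes was not counted. The listing of a single member is therefore not read as particular to the Rubisco rows.

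Other genes of carbon fixation were read from lists of words. No gene was called by limma in any comparison among 33 tested rows matched by words for other Calvin cycle enzymes, 26 of Rubisco folding and methylation, or 6 of entry into photorespiration. The folding list includes 6 rows of GroES-like alcohol dehydrogenases, which its words also matched. It also holds 13 rows matched by chaperonin 60, led by LOC111882599, described as Cpn60/TCP-1, which were not sorted by compartment. Its words missed LOC111898684, a Cpn10 chaperonin. Of all 34 rows matched for the Calvin cycle, 10 are named as cytosolic or cytoplasmic isoforms, which are not part of the chloroplast cycle. They include the most abundant rows for glyceraldehyde-3-phosphate dehydrogenase (LOC111878875), triosephosphate isomerase (LOC111876283) and ribulose-phosphate 3-epimerase (LOC111912872). In Las_SL against Las_WL, 3, 5 and 0 rows of these lists had an unadjusted p under 0.05, as did 26.3% of all genes. In Las_SL against Las_WL, where 5.94% of all genes were called, the median log2 fold change was -0.11 for the Calvin cycle rows, 0.07 for the folding rows and 0.25 for the photorespiration rows, beside 0.18 over all genes. Without Las_WL 1 these medians were -0.07, 0.25 and 0.19, beside 0.33 over all genes, and limma called 7 of 32, 4 of 26 and 1 of 6 rows, where 22.0% of all genes were called. Phosphoribulokinase (LOC111882958), which makes the substrate of Rubisco, averaged 559 ± 65.0 FPKM in Las_SL and 653 ± 338 FPKM in Las_WL (848 without Las_WL 1). The most abundant row for CP12 (LOC111881455), a small protein that holds phosphoribulokinase inactive in the dark, averaged 773 ± 53.2 FPKM in Las_SL and 506 ± 219 FPKM in Las_WL (632 without Las_WL 1), with a log2 fold change of 0.72 ± 0.38 (limma adjusted p = 0.270). Chloroplast transketolase (LOC111876927), which regenerates ribulose bisphosphate precursors, averaged 486 ± 63.5 FPKM in Las_SL and 798 ± 375 FPKM in Las_WL (1007 without Las_WL 1). The assembly chaperone RbcX (LOC111881077) averaged 37.4 ± 4.08 FPKM in Las_SL and 35.6 ± 13.6 FPKM in Las_WL (43.5 without Las_WL 1). Glycolate oxidase (LOC111889738), a peroxisomal enzyme of photorespiration, averaged 1367 ± 10.1 FPKM in Las_SL and 1040 ± 544 FPKM in Las_WL (1354 without Las_WL 1). Las_WL 1 was the lowest of the 9 libraries for each of these 5 genes. Over the most abundant row of each of 16 enzymes or chaperones in the lists, it was the lowest for 10 and the highest for 5, LOC111878875, LOC111912585, LOC111912872, LOC111876283 and LOC111888377.

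Among 13514 other rows with a mean FPKM of at least 5, the log2 level most like that of the small subunit sum over the 9 libraries was that of LOC111890001, a PDZ domain protein (Pearson r = 0.99, mean 83.0 FPKM). LOC111886224 and LOC111904638, a hypothetical protein and a protein with an NAD(P)-binding domain, followed with 0.99 and 0.98. The fourth and the fifth were LOC111886178, a small subunit of glucose-1-phosphate adenylyltransferase, an enzyme of starch synthesis, and LOC111876697, the PsbO protein of photosystem II, both at 0.98. For LOC111889447, the row described as an activase, the nearest was LOC111884315, a WD40 repeat protein (r = 0.93), followed by a phenylalanine ammonia-lyase, LOC111894107 (r = 0.92), and 3 rows without a gene name (0.90 for each). For the binding protein sum, the nearest row was LOC111889383, a fructokinase-like protein (r = 0.99), in a search made after the values were seen. It was followed by LOC111906749, described as protein TIC 56, LOC111888062, a ceramide glucosyltransferase, and LOC111907920, a protein with an AAA+ ATPase domain (0.99 for each). LOC111898684, a Cpn10 chaperonin, ranked 5 (r = 0.99), below these rows. Cpn10 proteins form the lid of such a folding chamber, but the description of this row names no compartment. These values carry no p, since the rows were picked by this same correlation from the 13514 rows searched.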

How the data were processed

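Leaf RNA of 9 libraries, 3 per light group, had been sequenced by the authors. The paper names rRNA depletion and RNase R treatment, the labels poly(A) selection. The paper names Cutadapt, FastQC, Bowtie2 and TopHat2 with Lsat_Salinas_v7. The submitters' processing notes name Bowtie 0.12.2, HISAT2 2.0, StringTie 1.3.0 and mm8, a mouse build. FPKM values were deposited by the authors, who name edgeR for them, and were used as deposited. Back-spliced read counts were deposited by the authors without normalization, and a deposited SRPBM signal, scaled by junction reads, was not analysed. No FPKM step common to low genes was found (the commonest ratio held 4.02% to 7.06% of them), so whole reads were not recovered. RNase R digests linear RNA, which can lower gene FPKM unevenly.

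Groups came from the labels. Members and lists were chosen with earlier results of these data known. All members were named, with the most abundant row per related enzyme and the 5 rows most like each class sum (averaging 5 FPKM or more), of which a subset is printed. limma 3.58.1 in R 4.3.3 (trend, no block) was fitted to log2(FPKM + 1) of the 26145 genes averaging 0.5 FPKM or more, and genes were called at a Benjamini-Hochberg adjusted p below 0.05. The fit was tested on simulated data. Sums over members carry no p. The libraries are replicates by their labels, and p-values rest on the spread between them. The paper sets light by planting layer and names no replicate layers or chambers per intensity. These p-values therefore cannot separate light from growing position. Other pseudocounts, filters, scalings, a block and single omissions were tried. Python 3.11.15 with numpy 2.4.6, pandas 2.3.3 and matplotlib 3.10.9 was used.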

Additional observations from a re-analysis of the deposited data

How the results depend on the processing

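The reads behind each single FPKM value are unknown, and with 3 libraries per group 2 outlying libraries can set a group mean. The number of members called by limma in Las_SL against Las_WL, 2 in the fit reported, was 1 with no filter on low values and 0 with rescaling that leaves out the 10 most abundant other genes, with quantile normalization, in a fit of the 6 libraries compared, and with a replicate block. Over all genes these settings called 1477, 473, 6, 1 and 0, against 1552 in the fit reported. The lost calls kept log2 fold changes of -3.37 or below for LOC111908253 and -3.10 or below for LOC111908252 in these settings, and limma adjusted p over all alternatives ran from 0.0200 to 0.148 and from 0.0203 to 0.160. Leaving out 1 library each gave 0 to 4 called members and 0 to 5698 called genes in all. When a p below 0.05 before adjustment and a log2 change of 1 or more in size were asked for, 3 members and 1.43% of all genes passed in Las_SL against Las_ML. The replicate block brought limma adjusted p to 0.0943 for LOC111908253 and 0.102 for LOC111908252. Correlations of deviations ran from -0.52 to 0.56 between same-numbered libraries and from -0.61 to 0.57 between differently numbered ones. With 3 libraries per group, these values cannot settle whether the numbers mark a pairing or a shared batch. The cause of these losses was not tested.

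For LOC111917913, Las_SL against Las_WL stood at 0.57 after quantile normalization, a reversal of -0.22, and quantile normalization moved the median of all genes to -0.01 in place of 0.18. Over single omissions its log2 fold change ran from -0.79 to 0.12, and from -0.47 to 0.44 in Las_WL against Las_ML. In Las_SL against Las_WL, uncalled values that changed sign ran from -0.44 to 0.19 for LOC111886111, from -0.54 to 0.30 for LOC111886325, from -0.59 to 0.39 for LOC111898611, from -0.78 to 0.18 for LOC111901465, from -1.14 to 0.26 for LOC111901466, from -0.25 to 0.56 for LOC111885179 and from -0.66 to 0.43 for LOC111910617. Of 42 gene values computed, 27 changed sign in some setting, neither of those called among them. The percent of small subunit FPKM taken by LOC111917913 kept the order of its group means in every omission, with log2 ratios of Las_SL to Las_WL from 0.35 to 0.43 around 0.38, and 0.27 without the merged row, an alternative chosen after the data were seen.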
